A study of Mus musculus with 6 samples.

Results

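The enzymes of phase II conjugation attach glutathione, glucuronic acid or sulfate to foreign compounds, bile pigments, hormones and products of lipid oxidation. The genes examined were all those with a symbol in the array annotation that starts with Gsta, Gstk, Gstm, Gsto, Gstp, Gstt, Gstz, Mgst, Ugt1a, Ugt2a, Ugt2b, Ugt3a or Sult. This rule gave 61 of the 19057 genes on the array. They were 4 alpha class, 7 mu class and 11 other cytosolic glutathione S-transferases (GSTs), 3 microsomal GSTs (Mgst), 8 Ugt1a and 12 Ugt2 or Ugt3 UDP-glycosyltransferases (UGTs) and 16 sulfotransferases (SULTs). Of the 61, 50 gave a signal above background on at least 1 of the 6 arrays and 22 on all 6. A signal was taken as above background when its detection p-value, against negative control probes on the same array, was under 0.05. The 11 genes never above background were Gstp2, Gstt4, Ugt1a6b, Ugt2a1, Ugt2a2, Ugt2b5, Ugt2b37, Ugt2b38, Sult1b1, Sult1c1 and Sult3a1.

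GSTs transfer glutathione to reactive, electrophilic compounds. The alpha, mu and pi classes are abundant soluble proteins of the liver, and several of their genes are known targets of NRF2, the transcription factor that responds to oxidative and electrophilic stress through the antioxidant response element. UGTs sit in the endoplasmic reticulum and use UDP-glucuronate, or for the Ugt3 enzymes other UDP-sugars, while cytosolic SULTs use the activated sulfate PAPS. Hepatocytes are the main site of all these reactions in the liver, and bile duct cells carry a narrower set.

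RNA was measured on Illumina mouse bead arrays, 1 array for each condition, with no replicate of any condition. EpCAM+ non-parenchymal cells were sorted from livers of DDB1F/F;Alb-Cre+/+ mice of 4 weeks, DDB1F/F;Alb-Cre+/- mice of 6 weeks and DDB1F/F;Mx1-Cre+/- mice. Others came from livers injured by a diet with DDC, a compound that provokes proliferation of bile duct cells and oval cells. The study describes the DDC mice as wild type, so they differ from the mutants in genotype as well as diet. Hepatocytes came from DDB1F/F;Alb-Cre+/+ and from wild type livers. All mice were of a mixed C57BL/6 x 129 background. Both alleles of Ddb1, an adaptor of the Cullin4 ubiquitin ligase, carried loxP sites in the mutants. Alb-Cre runs from the albumin promoter and so acts in hepatocytes, while Mx1-Cre is induced through interferon, after injection of poly(I:C), and also acts outside hepatocytes. The labels give no age for the other 4 arrays, and they name the tissue mammary where the study describes liver, so the samples were taken as liver cells. Age, genotype, diet and array cannot be told apart here.

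The arrays matched their labels in part. In the limma fit described below, 5.4% of all 12281 genes tested were lower and 4.56% higher in EpCAM+ cells than in hepatocytes. Of the hepatocyte markers, 13 of 19 were lower in EpCAM+ cells and none was higher, and their summed signal was 40369 to 88967 on the EpCAM+ arrays, against 363579 in mutant and 456891 in wild type hepatocytes. Cholangiocyte markers were higher in EpCAM+ cells for 7 of 13 genes and lower for none, with Sox9, Krt19 and Cftr among the 7, while Epcam itself was dim at 112 to 177 and failed the detection threshold in Alb-Cre+/- EpCAM+ cells. Hepatocyte transcripts were thus measured in every EpCAM+ preparation. Mutant hepatocytes had higher summed signals than wild type hepatocytes for cholangiocyte markers (12927 against 4356), sinusoidal endothelial markers (19213 against 4609.7), macrophage markers (10696 against 2889) and stellate cell and fibroblast markers (17483 against 4286). Ddb1 read 169 in mutant and 499 in wild type hepatocytes. Eif2s3y, a gene of the Y chromosome, read 1880.3 in Mx1-Cre EpCAM+ cells, 2278 in DDC EpCAM+ cells and 1825 in wild type hepatocytes and gave no signal above background on the other 3 arrays. Xist, which is transcribed from an inactive X chromosome, read 1907 in Alb-Cre+/+ and 2094 in Alb-Cre+/- EpCAM+ cells, and 121 in mutant hepatocytes, where it was only just above background. The labels give no sex.

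The promoters of 4 genes that recur in the results can be set side by side. The windows below are from RefSeq on the GRCm38.p6 build and run from 250 bases before to 50 bases after the transcription start. Capitals mark the motif named for each gene. Gsta1 and Gsta2 are shown because their signals moved together between the hepatocyte arrays. Their windows lie at chr9:78230419-78230718 on the plus strand and at chr9:78347096-78347395 on the minus strand. Aligned end to end, they were identical at 238 of 284 aligned bases (83.8%). Each holds 1 copy of GCGTG, the xenobiotic response element core bound by the aryl hydrocarbon receptor, across the start in Gsta1 and just before it in Gsta2.
Gsta1: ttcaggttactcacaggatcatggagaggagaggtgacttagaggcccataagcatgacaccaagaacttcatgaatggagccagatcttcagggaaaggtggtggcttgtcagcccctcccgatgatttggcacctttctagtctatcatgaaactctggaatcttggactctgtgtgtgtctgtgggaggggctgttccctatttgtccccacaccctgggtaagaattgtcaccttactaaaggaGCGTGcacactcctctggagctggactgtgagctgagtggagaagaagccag
Gsta2: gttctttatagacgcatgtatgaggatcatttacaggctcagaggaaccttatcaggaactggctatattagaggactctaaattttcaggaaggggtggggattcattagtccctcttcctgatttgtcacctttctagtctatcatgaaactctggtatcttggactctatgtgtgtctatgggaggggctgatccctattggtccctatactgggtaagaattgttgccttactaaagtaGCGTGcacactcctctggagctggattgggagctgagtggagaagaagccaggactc
Ugt1a10 is shown as the Ugt1a gene with the largest difference between cell types. Its window, chr1:88055161-88055460 on the plus strand, holds the letters GTTAAT, the core recognised by the hepatocyte factor HNF1, at 2 places.
Ugt1a10: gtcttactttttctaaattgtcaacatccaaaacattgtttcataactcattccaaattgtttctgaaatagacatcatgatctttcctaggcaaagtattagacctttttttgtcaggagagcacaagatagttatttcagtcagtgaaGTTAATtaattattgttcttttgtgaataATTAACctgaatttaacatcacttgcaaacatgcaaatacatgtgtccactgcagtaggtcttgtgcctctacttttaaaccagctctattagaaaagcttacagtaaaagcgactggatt
Gstm5 is shown as the only mu class gene that was not lower in EpCAM+ cells. Its window, chr3:107895604-107895903 on the plus strand, holds 1 antioxidant response element core, TGACNNNGC.
Gstm5: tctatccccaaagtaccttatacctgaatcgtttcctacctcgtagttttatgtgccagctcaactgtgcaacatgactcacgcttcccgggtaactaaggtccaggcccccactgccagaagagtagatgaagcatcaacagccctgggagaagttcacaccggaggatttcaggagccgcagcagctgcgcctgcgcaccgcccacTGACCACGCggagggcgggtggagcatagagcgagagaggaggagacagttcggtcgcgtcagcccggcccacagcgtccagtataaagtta
Of the 61 genes, 54 had a window. The antioxidant response element core was found in 4 of them (7.41%), against 14.0% of all 27025 genes with a window. GCGTG was found in 11 (20.4%), against 35.2% of all genes, and GTTAAT in 11 (20.4%), against 8.24%. Both strands were searched, and GCGTG can overlap the antioxidant core. GTTAAT was absent from the windows of Ugt2b1, Ugt2b34, Ugt2b35 and Ugt2b36. The genes with GTTAAT were Ugt1a1, Ugt1a6a, Ugt1a9, Ugt1a10, Ugt2a3, Ugt3a1, Gsta3, Sult1a1, Sult1d1, Sult2a6 and Sult3a2. These are matches of letters only, and near-identical copies such as the UGTs are not independent of each other.

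EpCAM+ cells had lower signals than hepatocytes for a large set of conjugation enzymes, above all Ugt2, Ugt3 and mu class GST genes. In a limma fit of the 4 EpCAM+ arrays against the 2 hepatocyte arrays, 23 of the 50 tested genes were lower and 0 were higher at an adjusted p under 0.05. Over all 12281 genes tested, 5.4% were lower and 4.56% were higher. At an unadjusted p under 0.05, 31 of the 50 differed in either direction, against 26.7% of all genes. The count of 23 fell to 15 without the Mx1-Cre array and to 15 without the Alb-Cre+/- array. The median log2 difference was -1.68 over the 50 genes and 0.03 over all genes tested. Every EpCAM+ array was below both hepatocyte arrays for 29 of the 50, against 15.6% of all genes, and every EpCAM+ array was above both for 3 (Gstm5, Sult2b1 and Sult4a1), against 19.3% of all genes. Signals here are quantile-normalized intensities, raised to a floor of 115 before the log. The spread behind each p is one between models and genotypes, since no condition was repeated, and in such bulk samples fewer cells of a type and less RNA per cell cannot be told apart. Of the 36 genes above background in at least 1 array of both groups, 18 were lower, against 6.03% of all genes under the same filter. Another 13 were above background in hepatocytes alone and entered the test through them, so their lower EpCAM+ signal is set in part by that filter. Some of the 13 are in the counts of 29 and 31, and all are in the median of -1.68. Shares over all genes include such genes too. The 5 of these 13 counted as lower (Ugt1a9, Ugt2a3, Ugt3a2, Sult1d1 and Sult5a1) had all 4 EpCAM+ arrays at the floor. That removes their spread, so no p is given for them.

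**Figure D1:**
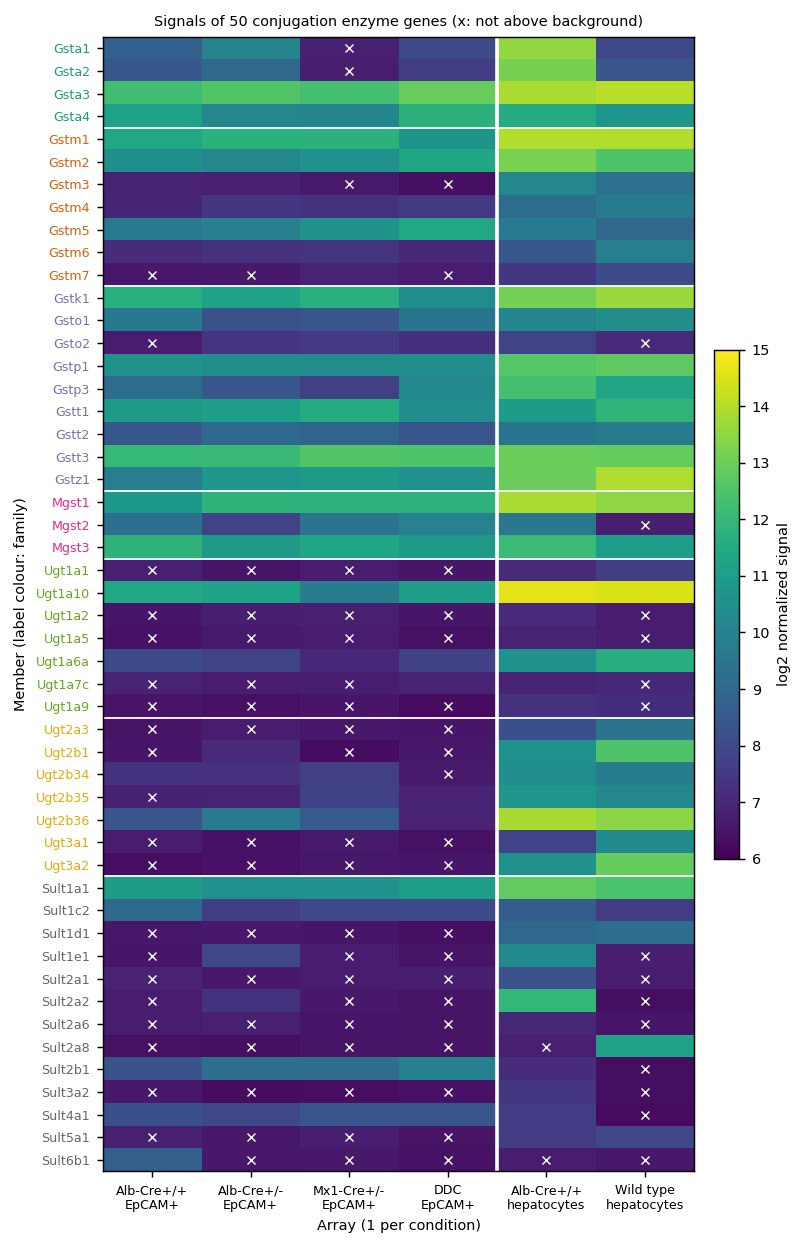
Heat map of the log2 normalized signal of the 50 genes above background on at least 1 array (rows, by family) on the 6 arrays (columns, 1 array per condition), with crosses where a signal was not above background. The 2 hepatocyte columns are brighter than the 4 EpCAM+ columns for most UGTs and mu class GSTs, while Gsta1 and Gsta2 are bright only in mutant hepatocytes.

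The UGTs showed the largest differences. Ugt2b36, one of the Ugt2b enzymes that glucuronidate steroids and bile acids, read 337, 831, 378 and 118 in Alb-Cre+/+, Alb-Cre+/-, Mx1-Cre and DDC EpCAM+ cells, against 14544 in mutant and 11043 in wild type hepatocytes. The groups did not overlap, and the DDC cells were the lowest. The log2 difference was -5.25 ± 0.75 (SE; limma adjusted p = 0.0153). Ugt3a2 was not above background on any EpCAM+ array and read 1505 in mutant and 7583 in wild type hepatocytes, at least 29.6-fold lower in EpCAM+ cells. Such a limit sets the dim arrays at their lowest signal above background. Ugt2b1 was above background in Alb-Cre+/- EpCAM+ cells alone among the EpCAM+ arrays, at 139, against 1539 in mutant and 5935 in wild type hepatocytes (log2 difference -4.65). The other EpCAM+ arrays lay at the floor for Ugt2b1, which narrows its spread, so no p is given for it. Ugt2b35, Ugt2b34 and Ugt2a3 were also lower, so that 6 of the 7 measured Ugt2 and Ugt3 genes were counted as lower, Ugt2a3 and Ugt3a2 with all EpCAM+ arrays at the floor. The seventh, Ugt3a1, was at the floor on all EpCAM+ arrays and read 226 in mutant and 1259 in wild type hepatocytes. It was not counted as lower, and no p is given for it either. The summed signal of these 7 genes was 701 to 1522 on the EpCAM+ arrays, against 21145 in mutant and 28551 in wild type hepatocytes.

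In the Ugt1a family, which makes the bilirubin and phenol conjugating enzymes, 3 of 7 measured genes were lower. The probe listed for Ugt1a10, the gene whose window with 2 GTTAAT matches is printed above, read 2699, 2388, 906 and 2045 in Alb-Cre+/+, Alb-Cre+/-, Mx1-Cre and DDC EpCAM+ cells, against 25249 in mutant and 23282 in wild type hepatocytes (-3.70 ± 0.47, adjusted p = 0.0113). Ugt1a transcripts share their later exons, so which of them this probe reads is not settled here. Of its 6 probes, 4 were above background and all 4 were lower in EpCAM+ cells. Ugt1a6a, a phenol UGT, read 132 to 268 in EpCAM+ cells, against 1536 in mutant and 3212 in wild type hepatocytes (-3.45 ± 0.45, adjusted p = 0.0119). Ugt1a9 was counted as the other lower gene, but it was above background on the mutant hepatocyte array alone, at 158, and its fitted difference was only -0.40 on the log2 scale. Ugt1a1, the bilirubin UGT, was dim at 137 in mutant and 203 in wild type hepatocytes and at the floor on all EpCAM+ arrays. It was not counted as lower, and no p is given for it.

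Among the mu class GSTs, 6 of 7 genes were lower and Gstm5 was not. Gstm1, a major mu class enzyme of the mouse liver, read 2719.8, 3429, 3553 and 1613 in Alb-Cre+/+, Alb-Cre+/-, Mx1-Cre and DDC EpCAM+ cells, against 15899 in both mutant and wild type hepatocytes (-2.56 ± 0.36, adjusted p = 0.014). Gstm3 was near or under background in EpCAM+ cells and read 1144 in mutant and 667 in wild type hepatocytes (log2 difference -2.91). Only its Alb-Cre+/+ EpCAM+ array lay above the floor, which narrows its spread, so no p is given for it. Gstm2, Gstm4, Gstm6 and Gstm7 were lower by 0.92 to 2.23 on the log2 scale. Gstm6 passed in 9 of 16 other settings, and none of its probes passed in a fit over all probes. Gstm7 lay above the floor in Mx1-Cre cells alone among the EpCAM+ arrays, at 117. Gstm5 went the other way. It read 857, 974, 1630.5 and 2621 in Alb-Cre+/+, Alb-Cre+/-, Mx1-Cre and DDC cells, against 841 in mutant and 506 in wild type hepatocytes. All 4 EpCAM+ arrays lay above both hepatocyte arrays, though Alb-Cre+/+ cells only just, and the difference of 1.08 ± 0.52 did not pass (adjusted p = 0.265). The 7 mu class genes lie next to each other on 1 chromosome in RefSeq, with Gstm5 at one end of the run.

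The alpha class split. Gsta3, known for conjugating aflatoxin epoxide in mice, read 4869.9 to 7659 in EpCAM+ cells, against 14735 in mutant and 16873 in wild type hepatocytes (-1.44 ± 0.24, adjusted p = 0.0235). Gsta4, which conjugates the lipid peroxidation product 4-hydroxynonenal, read 2294, 1161, 1128 and 3503 in Alb-Cre+/+, Alb-Cre+/-, Mx1-Cre and DDC cells, against 2971 in mutant and 1699.7 in wild type hepatocytes, so the groups overlapped (adjusted p = 0.734). Gsta1 and Gsta2, whose levels depended on which hepatocytes were taken, did not pass (adjusted p = 0.416 and 0.267).

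Of the other GSTs, 3 of 9 were lower. Gstp1, the pi class enzyme, was even within each group, at 1549, 1446, 1392 and 1363 in Alb-Cre+/+, Alb-Cre+/-, Mx1-Cre and DDC EpCAM+ cells, against 6377 in mutant and 7027 in wild type hepatocytes (-2.22 ± 0.14, adjusted p = 0.00374). Gstz1, the zeta class enzyme of tyrosine breakdown, read 928 to 1899 in EpCAM+ cells, against 7931 in mutant and 15591 in wild type hepatocytes (-2.93 ± 0.40, adjusted p = 0.0134). Gstk1, the mitochondrial and peroxisomal kappa class enzyme, was also lower (-2.13 ± 0.44, adjusted p = 0.0412). Gstp3 lay lower on every EpCAM+ array, at 207 to 1166, against 5164 in mutant and 2534 in wild type hepatocytes, but varied between models and did not pass (adjusted p = 0.0632). The theta class genes Gstt1 and Gstt3 were at -0.45 ± 0.40 and -0.63 ± 0.23, and the omega class gene Gsto2 was at -0.25 ± 0.28, and none of them passed. Of the microsomal enzymes, Mgst1 was lower, with 1773, 3685, 3587 and 3614 in Alb-Cre+/+, Alb-Cre+/-, Mx1-Cre and DDC cells, against 14963 in mutant and 11683 in wild type hepatocytes (-2.12 ± 0.36, adjusted p = 0.025). Mgst2, a leukotriene C4 forming enzyme, and Mgst3 gave 0.93 ± 0.93 and -0.39 ± 0.43 and did not pass.

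Only 3 of 13 measured SULTs were lower. Sult1a1, the phenol sulfotransferase, read 1486 to 2076 in EpCAM+ cells, against 7386 in mutant and 5559.8 in wild type hepatocytes (-1.88 ± 0.23, adjusted p = 0.0104). Sult1d1, which sulfates catecholamines, was not above background in EpCAM+ cells and read 525 in mutant and 588 in wild type hepatocytes, at least 4.87-fold lower in EpCAM+ cells. Sult5a1 was dimmer but similarly placed (at least 1.93-fold). Both were counted as lower with all EpCAM+ arrays at the floor. Sult2b1, the cholesterol and pregnenolone sulfotransferase of epithelia, was the member highest in EpCAM+ cells relative to hepatocytes. It read 321, 617, 601 and 1001 in Alb-Cre+/+, Alb-Cre+/-, Mx1-Cre and DDC cells, against 143 in mutant hepatocytes, and was not above background in wild type hepatocytes. The difference of 2.20 ± 0.50 missed the threshold by a small margin (adjusted p = 0.0504), and it passed in 8 of 16 other settings. Sult4a1, known mainly from brain, read 245 to 339 in EpCAM+ cells and 189 in mutant hepatocytes and was at background in wild type hepatocytes (1.03 ± 0.31, adjusted p = 0.101). Its other probe, above background on 1 array alone, gave 0.01 ± 0.02.

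**Figure D2:**
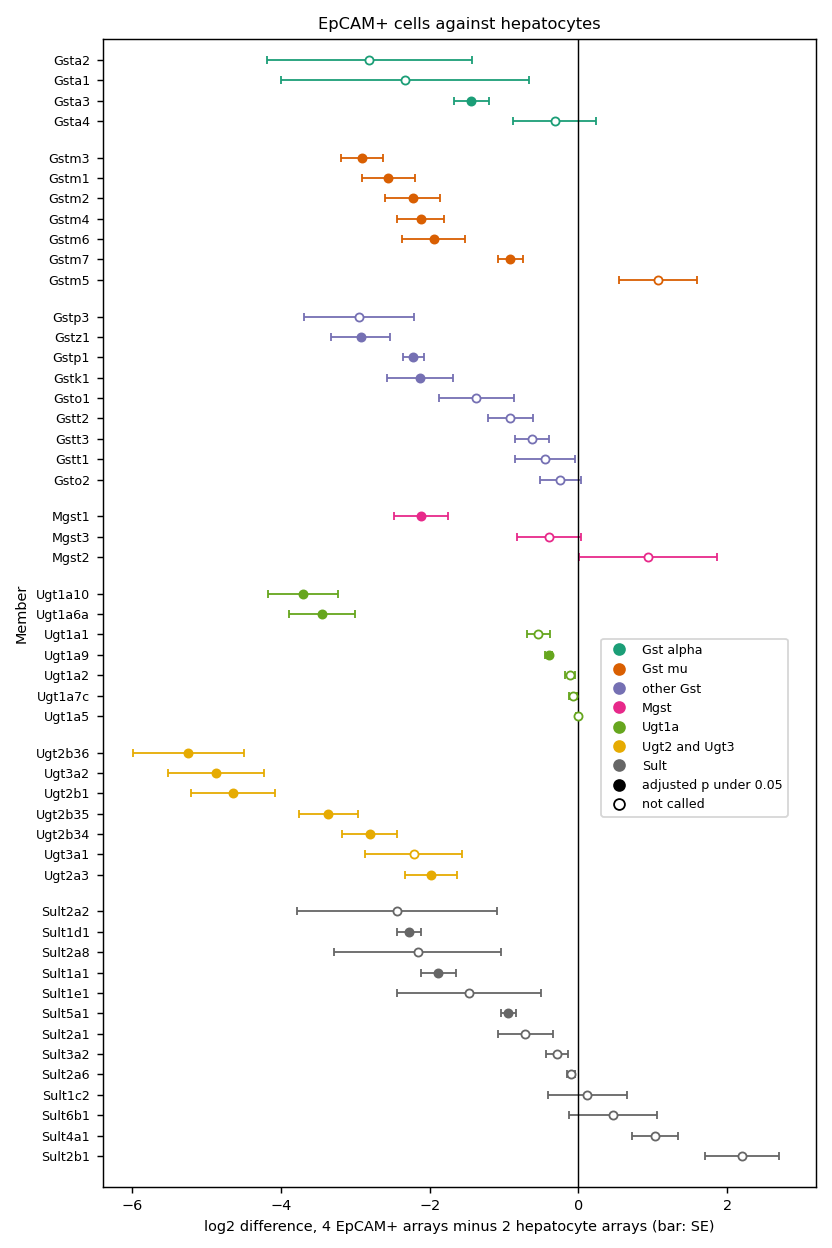
Log2 difference of each of the 50 genes, 4 EpCAM+ arrays minus 2 hepatocyte arrays, with the SE of the limma fit as bars, in colours by family and filled where the adjusted p was under 0.05. All 23 filled points lie left of 0, from -0.40 (Ugt1a9) to -5.25 (Ugt2b36), and the open points right of 0 include Sult2b1 at 2.20 and Gstm5 at 1.08. For 5 filled points (Ugt1a9, Ugt2a3, Ugt3a2, Sult1d1 and Sult5a1) all EpCAM+ arrays lay at the floor, which shortens the bars. A floor on most EpCAM+ arrays does so for Gstm3, Gstm7 and Ugt2b1.

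Set against wild type hepatocytes alone, EpCAM+ cells of a mutant and of the DDC diet gave like counts. These 2 comparisons share the wild type array, and with 1 array a side they carry no test, so a gene was counted when it differed by over 2-fold. In Alb-Cre+/+ EpCAM+ cells 26 of 40 genes were lower and 4 were higher, against 17.3% lower and 19.1% higher over all genes. In DDC EpCAM+ cells 27 of 41 were lower and 5 were higher, against 15.7% and 17.8%. A gene above background on only 1 of the 2 arrays entered through that array, so its direction is set in part by that filter. This also holds for the other folds of single arrays, and shares over all genes include such genes too. The largest measured fold was for Ugt2b36, 32.8-fold lower in Alb-Cre+/+ and 93.8-fold lower in DDC cells. Ugt3a2 was at least 63.7-fold lower in Alb-Cre+/+ and at least 68.7-fold lower in DDC cells. Ugt2b1 was lower by at least 49.9-fold in Alb-Cre+/+ cells and by at least 53.8-fold in DDC cells. No Ugt2 or Ugt3 gene measured was within 2-fold of wild type hepatocytes. Of these, Ugt2a3, Ugt2b1, Ugt3a1 and Ugt3a2 in both, Ugt2b35 in Alb-Cre+/+ and Ugt2b34 in DDC cells entered through the wild type array alone. Gstz1 was 16.8-fold lower in Alb-Cre+/+ and 10.3-fold lower in DDC cells, and Sult2a8 was lower by at least 19.3-fold in the first cells and by at least 20.9-fold in the second. Gstm1 was 5.85-fold lower in Alb-Cre+/+ cells and 9.86-fold lower in DDC cells. The higher genes in Alb-Cre+/+ cells were Mgst2 (at least 3.88-fold), Sult1c2 (2.90-fold), Sult6b1 (at least 2.64-fold) and Sult2b1 (at least 2.02-fold). Those in DDC cells were Mgst2 (at least 6.42-fold), Sult2b1 (at least 6.29-fold), Gstm5 (5.18-fold), Sult4a1 (at least 2.13-fold) and Gsta4 (2.06-fold).

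Mutant hepatocytes differed from wild type hepatocytes by over 2-fold in 15 conjugation genes, among them Gsta1. These were 1 array a side, compared by fold with no test. Gsta1 read 11951 in mutant and 250.3 in wild type hepatocytes, 47.7-fold higher in the mutant. All 3 Gsta1 probes were higher on the mutant array, and the other 2 read 10785 and 6124 there, against 168 and 227 on the wild type array. Gsta2, at 9148 in mutant and 342 in wild type hepatocytes, was 26.8-fold higher. Gsta1 and Gsta2 are nearly identical in sequence and a probe may read both, so these values are not independent. Both encode alpha class subunits that are kept low in resting mouse liver and are classic targets of induction by antioxidants. Their promoter windows, printed above, hold no match to the antioxidant response element core. The windows reach only 250 bases before the start, so an element further out would not be seen, and no conclusion is drawn. What raised the signals was not tested. Gsta3 and Gsta4 changed less, at 1.15-fold lower and 1.75-fold higher.

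Over the 49 genes above background in at least 1 of the hepatocyte arrays, 8 were over 2-fold higher and 7 over 2-fold lower in mutant hepatocytes, against 9.43% higher and 8.59% lower over all genes. The SULTs held large differences in both directions. Sult2a2 read 4028 and Sult1e1, the estrogen sulfotransferase, 1282 in mutant hepatocytes, and neither was above background in wild type hepatocytes (Sult2a2 at least 25.3-fold higher, Sult1e1 at least 8.05-fold). Sult2a8 had the reverse pattern, with no signal above background in mutant hepatocytes, against 2303 in wild type hepatocytes (at least 20.1-fold lower). Sult2a1 was dim in mutant hepatocytes at 312 and below background in wild type hepatocytes (at least 1.96-fold). Mgst2 (at least 4.78-fold), Mgst3 (2.14-fold), Gstp3 (2.04-fold) and Sult1c2 (2.03-fold) were the other higher genes.

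The lower genes apart from Sult2a8 were mostly UGTs. Ugt3a1 read 226 in mutant and 1259 in wild type hepatocytes (5.56-fold lower). Ugt3a2 was 5.04-fold lower at 1505 against 7583, and Ugt2b1 was 3.86-fold lower at 1539 against 5935. Ugt2a3 and Ugt1a6a were 2.40-fold and 2.09-fold lower, and Gstm6 was 2.64-fold lower. Ugt2b36 (1.32-fold higher), Ugt2b35 (1.46-fold higher) and the probe of Ugt1a10 (1.08-fold higher) stayed within 2-fold, as did Gstm1, Gstp1 and Mgst1. After median scaling the counts were 14 higher and 4 lower, and the share of higher among all genes over 2-fold was 85.7%, against 52.3% here.

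Genes that mark sex and age moved with this comparison. They were chosen after their values were seen. Hsd3b5, Elovl3 and Cyp4a12a, which are known for high levels in adult male mouse liver, were all lower in mutant hepatocytes. Hsd3b5 and Elovl3 were not above background there, against 9535 and 2386 in wild type hepatocytes, and Cyp4a12a read 202, against 4658. Afp, a marker of fetal and young liver and of oval cells, read 10819 in mutant hepatocytes and was not above background in wild type hepatocytes. Sult2a1 and Sult2a2 are known for higher levels in female than in male mouse liver. The part of sex, of age and of the other cell types' markers in the hepatocyte differences was not tested.

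**Figure D3:**
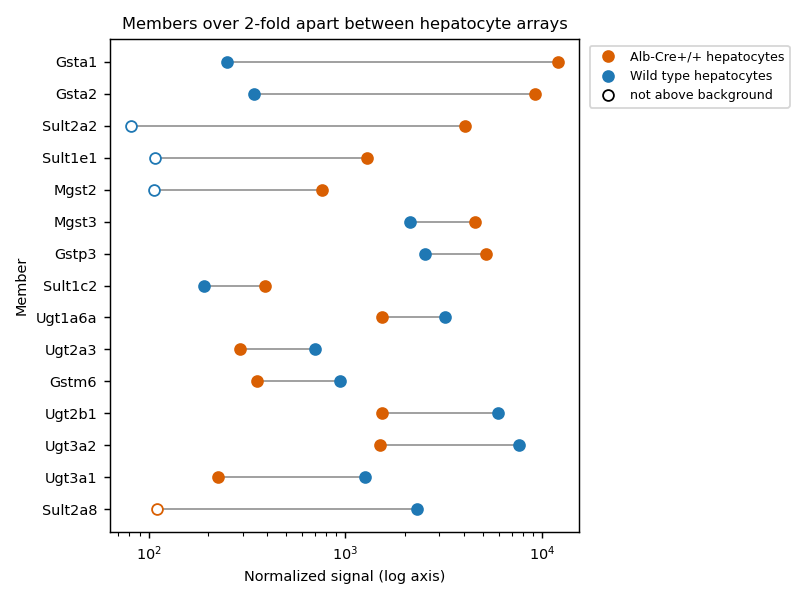
Normalized signal (log axis) of the 15 conjugation genes that differed by over 2-fold between the mutant (orange) and the wild type (blue) hepatocyte array, ordered by fold, with open points where a signal was not above background. Gsta1 and Gsta2 lie at 11951 and 9148 in the mutant and at 250.3 and 342 in the wild type, and the lower 7 rows run the other way.

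No conjugation gene separated the mutant EpCAM+ cells as a group from the DDC cells at the threshold. In a limma fit of 3 groups, none of the 50 genes was lower or higher in the 3 mutant EpCAM+ arrays than on the DDC array, against 0.586% lower and 0% higher over all genes. An unadjusted p under 0.05 was reached by 3 of the 50 (Gstm1, Gstk1 and Ugt2b36), against 6.19% of all genes, a share close to that of the members. The lone DDC array was assumed to vary like the others. Gstm1 had a log2 difference of 0.99 ± 0.23 (adjusted p = 0.446), Gstk1 of 1.18 ± 0.35 (adjusted p = 0.616) and Ugt2b36 of 2.01 ± 0.60 (adjusted p = 0.628).

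By folds of single arrays over the shared DDC array, Alb-Cre+/+ cells had 4 of 33 genes higher and 4 lower, against 7.83% and 7.81% of all genes. Alb-Cre+/- cells had 5 of 35 higher and 6 lower, against 5.75% and 4.61%. Mx1-Cre cells had 4 of 32 higher and 5 lower, against 5.15% and 4.73%. After median scaling, Alb-Cre+/+ cells had 2 genes higher and 9 lower.

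Some genes stood out in DDC cells. Ugt2b36 exceeded its DDC level, which was barely above background at 118, by 2.86-fold in Alb-Cre+/+, by 7.06-fold in Alb-Cre+/- and by 3.21-fold in Mx1-Cre cells. The summed signal of hepatocyte markers ran the same way, at 82122 in Alb-Cre+/+, 88967 in Alb-Cre+/- and 55909 in Mx1-Cre cells, against 40369 in DDC cells. Ttr alone gave 37972 of the Mx1-Cre sum and 14735 of the DDC sum. By gene, 5 of 13, 9 of 17 and 2 of 15 hepatocyte markers were over 2-fold higher than in DDC cells, in the same order. Over 2-fold lower were 0, 0 and 1. Sinusoidal endothelial markers summed to 26953, 35416 and 18695 in the same mutants, against 3349.5 in DDC cells. Of these, 9 of 13, 10 of 14 and 7 of 14 were over 2-fold higher. The part of these markers in the differences from DDC cells was not tested. Gstp3 was 2.02-fold, 3.44-fold and 5.63-fold lower in Alb-Cre+/+, Alb-Cre+/- and Mx1-Cre cells than in DDC cells (577, 339 and 207, against 1166). Gstm5 was 3.06-fold lower in Alb-Cre+/+, 2.69-fold lower in Alb-Cre+/- and 1.61-fold lower in Mx1-Cre cells, and Gsta4 1.53-fold, 3.02-fold and 3.11-fold lower in that order. Sult2b1 was 3.12-fold lower in Alb-Cre+/+ cells and 1.62-fold and 1.67-fold lower in Alb-Cre+/- and Mx1-Cre cells. Gstk1 was 2.56-fold, 1.78-fold and 2.57-fold higher and Gstm1 1.69-fold, 2.13-fold and 2.20-fold higher, in the same order of mutants.

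The mutants also differed among themselves. Gsta1 read 434 in Alb-Cre+/+ cells, 1031 in Alb-Cre+/- cells and 271 in DDC cells and was not above background in Mx1-Cre cells, so that it was 3.81-fold higher in Alb-Cre+/- cells and at least 2.36-fold lower in Mx1-Cre cells than in DDC cells. Gsta2 followed the same order, at 344 in Alb-Cre+/+, 518 in Alb-Cre+/- and 197 in DDC cells. Mgst2 was 4.41-fold lower in Alb-Cre+/- cells, Mgst1 2.04-fold lower in Alb-Cre+/+ cells, and the probe of Ugt1a10 2.26-fold lower in Mx1-Cre cells. Gsto1, the omega class enzyme, was 2.42-fold and 2.18-fold lower in Alb-Cre+/- and Mx1-Cre cells. Sult6b1 was above background in Alb-Cre+/+ EpCAM+ cells alone, at 420.2, on 1 of its 2 probes. Sult1c2 was 2.06-fold higher in Alb-Cre+/+ cells, and Sult1e1 read 240.2 in Alb-Cre+/- cells and was not above background on the other EpCAM+ arrays. Gstm2 was 2.19-fold lower in Alb-Cre+/- cells, and Gstt1 was 2.21-fold higher in Mx1-Cre cells. Y-linked Eif2s3y and Xist also separate these arrays, as given above, and their part was not tested.

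**Figure D4:**
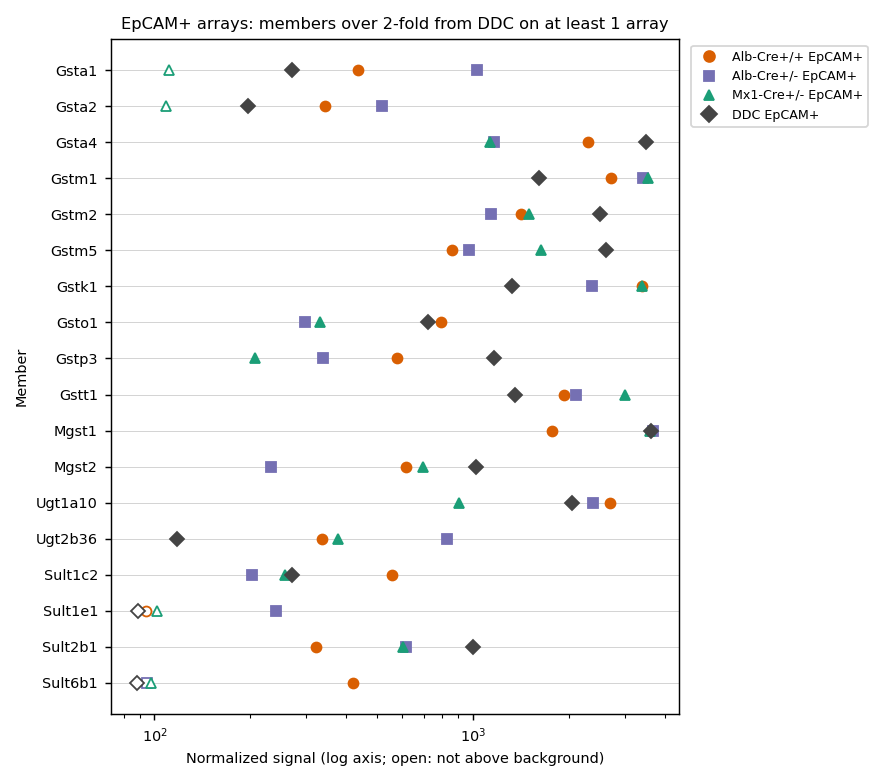
Normalized signal (log axis) on the 4 EpCAM+ arrays of the 18 genes that differed by over 2-fold from DDC cells on at least 1 mutant array, with open points where a signal was not above background. DDC cells (black diamonds) hold the highest point for Gsta4, Gstm2, Gstm5, Gstp3, Mgst2 and Sult2b1 and the lowest filled point for Gsta1, Gsta2, Gstk1, Gstm1, Gstt1 and Ugt2b36.

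The enzymes that feed, follow or regulate conjugation were compared from lists of pathway genes. Each count below stands beside 5.4% lower and 4.56% higher in EpCAM+ cells over all 12281 genes tested. Of 15 other phase II transferases measured, which methylate, acylate or transfer sulfur, 9 were lower in EpCAM+ cells and none was higher (median log2 difference -2.10). The extremes were Gnmt, the glycine N-methyltransferase (-6.15 ± 0.57), Glyat (-4.95 ± 0.47) and Nnmt (-4.79 ± 0.61) on one side, and As3mt, the arsenic methyltransferase (-0.55 ± 0.11), Tst (-2.10 ± 0.42) and Acsm1 (-3.09 ± 0.54) on the other. Of 13 glutathione supply and recycling genes, only Gpx1 (-1.47 ± 0.31) and Gss, glutathione synthetase (-1.42 ± 0.25), were lower, and the median was -0.31. Of 6 genes that supply UDP-glucuronate and PAPS, Papss2, the main PAPS synthase of liver, was lower at 159 to 282 in EpCAM+ cells, against 4542 in mutant and 2719.8 in wild type hepatocytes (-4.12 ± 0.35). Its paralog Papss1 read 1002 to 4459 in EpCAM+ cells, against 1034 in mutant and 353 in wild type hepatocytes, and did not pass (adjusted p = 0.222).

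Of 7 hydrolases that act on conjugates, esters or epoxides, Ephx2 (-3.22 ± 0.47) and Ces1g (-2.97 ± 0.39) were lower. Of 7 export transporters, Abcc2, the canalicular pump for glutathione and glucuronide conjugates, was lower at 98.7 to 169 in EpCAM+ cells, against 1036 in mutant and 1039 in wild type hepatocytes (-2.95 ± 0.29). Of 14 regulators, 3 were lower. They were Nr1i3, the constitutive androstane receptor (-4.66 ± 0.33), Rxra, its partner (-1.95 ± 0.20), and Nr1i2, the pregnane X receptor (-1.75 ± 0.38). None of the transporters or regulators was higher. Of 17 NRF2 targets outside the conjugation enzymes only Nqo1 was lower (-0.78 ± 0.08), a share close to the 5.4% of all genes. None of the 17 was higher, and the median was -0.31. In mutant over wild type hepatocytes, 4 of these 17 were over 2-fold higher and none was over 2-fold lower, beside 9.43% higher and 8.59% lower over all genes. Median scaling raised the share of higher calls over all genes in this comparison, as given above. They were Cbr3 (at least 10.7-fold), Srxn1 (4.67-fold, at 8790.3 against 1883), Aldh3a1 (at least 3.18-fold) and Akr1b8 (at least 2.13-fold). The pericentral and periportal hepatocyte genes were lower in EpCAM+ cells for 9 of 11, with none higher (median -4.25).

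Several genes had over 1 probe, and 28 of the 61 did. For 15 of them over 1 probe was above background, and in 4 (Gstk1, Gstp1, Mgst1 and Sult1d1) the probes differed in whether they passed the test in a fit over all probes. Mgst1 was the most divided. Its brighter probe gave the values above, and the other was at background in both Alb-Cre EpCAM+ preparations and read 1038 in Mx1-Cre and 1329 in DDC cells, against 115 in mutant and 3811 in wild type hepatocytes. The second Sult1d1 probe was dim on all arrays, at 126 to 164 in EpCAM+ cells, against 119.8 in mutant and 170.4 in wild type hepatocytes. The dimmer Gstp1 probes were also lower in EpCAM+ cells, at -1.28 ± 0.32, which did not pass, and -2.03 ± 0.32. Gstk1 gave -2.13 and -2.12 at its 2 probes, on either side of the threshold. The Gsta, Gstm, Gstp, Ugt1a, Ugt2b and Sult2a genes have close paralogs, and how far their probes read one another's transcripts was not tested.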

How the data were processed

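RNA of 6 samples was hybridised to 6 Illumina arrays with 45281 probes. The authors summarised beads in GenomeStudio and deposited, per probe and array, the non-normalized intensity, the standard error over beads, the number of beads and the detection p-value. The deposited detection p-value was used as given. The authors also deposited linear signal intensity values that they had quantile normalized. These follow the non-normalized values in rank on each array and were used here. The build the authors' annotation rests on is not given in the sources used here. Columns left unmapped to a sample numbered 0.

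A single gene symbol was listed for 34885 probes, several for 18 and none for 10378. Each gene was read at its brightest probe with 1 symbol. The 12281 genes above background (detection p under 0.05) on any array were tested. Signals were raised to a floor of 115, the median over arrays of the lowest signal above background, and taken to log2. limma 3.58.1 (R 4.3.3; lmFit, eBayes with trend) fitted all genes, with Benjamini-Hochberg adjustment. Between single arrays a fold over 2 was counted, with no test. Where 1 array was not above background, the fold is a limit against the lowest signal above background there. Scripts were tested on simulated data. Summaries used Python 3.11.15 with pandas, and precision is limited by the number of arrays. The lowest signal above background was 159 in wild type hepatocytes and 110.3 to 119 on the other arrays. The standard error over beads of detected member signals was 3.71 to 10.6% (median 6.22%).

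The named genes were Gsta1, Gsta2, Gsta4, Gstp1, Gstm1 and Mgst1, the 3 brightest of each family, up to 10 highest and 10 lowest called in each comparison, genes whose probes disagree, and up to 3 called genes at each end of each list. Others were named where a count was small, after their values were seen. Members and lists were chosen with earlier results of these data known. Alternatives were another detection threshold or none, a filter per group, other normalizations, a floor at 1, the mean of all probes, eBayes without trend, array weights and each array left out.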

Additional observations from a re-analysis of the deposited data

Results flagged for a closer look

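On the 4 EpCAM+ arrays, 8 of 37 members examined (21.6%) had 1 array far from the other 3, against 18.9% of all 11532 genes examined in the same way. These arrays differ in genotype or diet, so they are not replicates. The value is the gap to the nearest array as a share of the whole range on the log2 scale. In 6 of the 8 it is 1 because the other 3 arrays lay at the floor, which marks any gene measured on 1 array, so the rate of about 1 in 20 that chance gives does not apply to them. Alb-Cre+/+ cells were the highest for Gstm3 (1, at 120.3, close to background) and Sult6b1 (1, at 420.2) and the lowest for Mgst1 (0.963, at 1773). Alb-Cre+/- cells were the highest for Sult1e1 (1, at 240.2), Sult2a2 (1, at 161) and Ugt2b1 (1, at 139). Mx1-Cre cells were the highest for Gstm7 (1, at 117, close to background) and Ugt2b35 (0.971, at 215). Alb-Cre+/- cells also had the largest summed macrophage signal of the EpCAM+ arrays (11366) and the largest summed hepatocyte signal (88967), and the part of these in its values was not tested. The sort, as the study describes it, took F4/80- cells, a gate that should remove macrophages. Adgre1, the gene of F4/80, nevertheless read 664 in Alb-Cre+/- cells and was not above background on the other EpCAM+ arrays. Of 10 macrophage markers measured, 8 were over 2-fold higher in Alb-Cre+/- than in DDC cells and 0 were lower. Over all genes, 5.75% were higher and 4.61% lower.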

How the results depend on the processing

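Of the 23 genes lower in EpCAM+ cells than in hepatocytes, 10 stayed lower in all 16 other settings (Gstm3, Gstp1, Sult1a1, Sult1d1, Sult5a1, Ugt1a6a, Ugt2b1, Ugt2b34, Ugt2b35 and Ugt3a2), and no member changed direction while called. Sult1d1, Sult5a1 and Ugt3a2 among them had all EpCAM+ arrays at the floor, and Gstm3 and Ugt2b1 had all but 1 there. The count of lower genes ranged from 15 to 23 when 1 array was left out, with 15 without the Mx1-Cre array and 15 without the Alb-Cre+/- array, and from 16 with array quality weights to 26 with the floor at 1. Without wild type hepatocytes 23 were again lower, of which 15 were shared, and without mutant hepatocytes 22, of which 18 were shared. The count of higher genes, 0 here, ranged from 0 to 1 when 1 array was left out. It was 1 with a detection p under 0.01, own quantile normalization, median scaling, normexp background, the floor at 1 or eBayes without trend, and 2 with genes above background on every array of a group. Sult2b1 passed in 8 of 16 other settings, with an adjusted p (limma) of 0.0125 to 0.203. For Alb-Cre+/+ EpCAM+ cells over wild type hepatocytes, 2 genes were higher with a detection p under 0.01 and 2 with the mean of all probes, against 4. Median scaling gave 14 higher and 4 lower genes in mutant over wild type hepatocytes, against 8 and 7, with the median of all genes at 0.21 on the log2 scale. It gave 2 higher and 9 lower genes in Alb-Cre+/+ over DDC EpCAM+ cells, against 4 and 4, with the median of all genes at -0.13. The cause was not tested.

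Over all genes, the EpCAM+ and hepatocyte comparison gave 663 lower and 560 higher. It gave 429 and 249 with no detection filter, 936 and 1057 with the filter per group, 809 and 883 with the floor at 1, and 358 and 192 with array weights. Leaving out an array gave 347 to 1534 lower and 151 to 841 higher. The share of higher calls was 45.8%, against 35.6% with median scaling, 34.9% with array weights and 21.1% without wild type hepatocytes. Mutant EpCAM+ cells against DDC cells gave 72 lower genes, and 0 to 236 in the other settings, with no member called in any of them. Median scaling moved the share of higher genes to 85.7% (52.3%) in mutant over wild type hepatocytes, 68.8% (53.2%) in DDC EpCAM+ cells over wild type hepatocytes, 26.2% (50.1%) in Alb-Cre+/+ over DDC cells and 39.2% (55.5%) in Alb-Cre+/- over DDC cells, with the share as reported in brackets. Normexp background raised the genes over 2-fold to 1738 lower and 1332 higher, against 872 and 957, in mutant over wild type hepatocytes, and to 1495 and 1470, against 857 and 859, in Alb-Cre+/+ over DDC cells.

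No paired analysis was possible because each condition had 1 array. The planned comparison of protein sequences was not run. With 1 array per condition, differences between single arrays have no replicate check. Dim genes limit the folds, since the lowest signal above background was 159 in wild type hepatocytes and no higher than 119 on the other arrays.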
